A study of Mus musculus with 10 samples.

Results

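Neuronal RNA-binding proteins that bind pre-mRNA and mRNA were followed through 10 genes: Rbfox1 and Rbfox3, Elavl2, Elavl3 and Elavl4, Nova1, Khdrbs3, Ptbp2, Celf1 and Sf1. Every probe set annotated to 1 of these genes was taken, whatever its values, which gave 26 of the 22626 probe sets tested, and 0 were shared with a further gene. The samples were cerebral cortex of 10 male mice at 6 months of age, 5 labelled FE65 wild type and 5 labelled p97FE65 null, with 1 Affymetrix mouse array per mouse. The null mice lack the full-length form of FE65 (gene symbol Apbb1), a neuronal adaptor protein. They were made in R1 embryonic stem cells, from a strain other than C57Bl/6J, and repeatedly backcrossed to C57Bl/6J, and the wild type mice were their littermates. Genes near FE65 can therefore carry the sequence of the stem cell strain in the null mice. The study used the arrays to look for transcripts that depend on FE65, and the question here is whether transcripts of these RNA-binding proteins differed between the labelled groups.

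These proteins shape the transcripts that neurons make. Rbfox proteins bind a short UGCAUG element and promote or repress neighbouring exons according to its position, and Rbfox3 is the nuclear antigen NeuN by which neurons are commonly stained. The neuronal Hu proteins Elavl2, Elavl3 and Elavl4 bind AU- and U-rich RNA and act on splicing, stability and translation. Nova1 and Khdrbs3 are KH-domain proteins, Ptbp2 is the neuronal polypyrimidine tract-binding protein that restrains adult exons during development, Celf1 binds GU-rich elements, and Sf1 recognises the branch point at the start of spliceosome assembly in all cells.

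Values are log2 expression per probe set, made by the authors with GC-RMA, and a difference is labelled null minus labelled wild type. The direction under these labels opposes that of the study's tables: Gprc5b probe set 1451411_at, which those tables list as higher in null mice, was at -1.23 here. Iqgap1, also listed as higher, was at -0.92 (1417380_at), and Myo7a, listed as lower, was at 0.70 (1421385_a_at). The sizes were those of the tables, 2.35-fold, 1.89-fold and 1.63-fold, with the direction exchanged. The study's RT-PCR also found more of the 1451411_at region in null forebrains. The genotype behind each label was therefore not settled, and groups are named by their labels. If the labels are exchanged, every direction given below is reversed. The targeted gene Apbb1 lay between 10.85 and 11.13 (labelled wild type) and between 10.80 and 11.37 (labelled null) at 1423892_at, and between 10.98 and 11.23 and between 11.30 and 11.51 at 1423893_x_at. According to the study's supplement both lie near the 3′ end of the gene, in sequence that the null transcript retains, so they do not show the targeted exon. The supplement gives them as 1.08-fold and 1.19-fold lower in null mice. Here they were 1.08-fold and 1.19-fold higher under the null label, the same sizes in the opposite direction. Array medians ran from 3.01 to 3.14 and correlations between arrays from 0.994 to 0.999. The 75th percentile was 6.95, 6.95 and 6.96 in wild type replicates 2, 3 and 4 and 6.97 in null replicate 5, against 6.78 to 6.83 in the other arrays. Bright probe sets therefore ran higher in these 4 arrays. Main results of the members are also given after quantile normalization or without an array. Lists of other genes are given as deposited, with their medians after quantile normalization. Cortex was the labelled tissue, and all 10 pan-neuronal markers measured (among them Thy1, Eno2 and the neurofilament chains) had a mean of at least 5.

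No probe set of the 10 genes differed between the labelled groups at an adjusted p of 0.05. The lowest limma p of a member adjusted over all probe sets was 0.999, and the count of 0 was the same with the methods' t-test. Over all 22626 probe sets this count was 0 as well (0.0%). The differences of the members were small, from -0.39 to 0.10, with a median of -0.08, and 20 of the 26 were below 0. Over all probe sets the median was -0.00036, and 50.2% were below 0. At an unadjusted limma p under 0.05, 4 of the 26 were lower in the arrays labelled null, 1 of Rbfox3, 2 of Elavl2 and 1 of Sf1, against 2.43% of all probe sets, and 1 was higher, of Celf1, against 1.24%. The members and the interest in them were chosen with earlier results on these arrays known, so these counts describe the genes and are no independent evidence. Dropping 1 array at a time turned the count of 4 into 2 (null replicate 1), 1 (null replicate 4) and 7 (null replicate 5). It was 2 without wild type replicate 2, and 3 without wild type replicate 4 or wild type replicate 5. With the methods' t-test and after quantile normalization it was 2. The count of 1 was 0 without null replicate 2 and without wild type replicate 5.

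Of the 26 probe sets, 17 had a mean of at least 5 and 9 were dim, with a mean under 5. Among bright probe sets in general the lower direction prevailed: of 7827 with a mean of at least 5, 65.5% were below 0, their median was -0.05, and 5.3% had an unadjusted p under 0.05 in that direction. Of the 17 bright member probe sets, 14 were below 0, with a median of -0.11, and 3 were lower at that p. After quantile normalization, which gives every array the same distribution of values, the median of bright probe sets was 0.01. That of the 17 bright members was then -0.04, with 12 below 0 and 1 lower at that p, against 3.04% of bright probe sets.

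**Figure D1:**
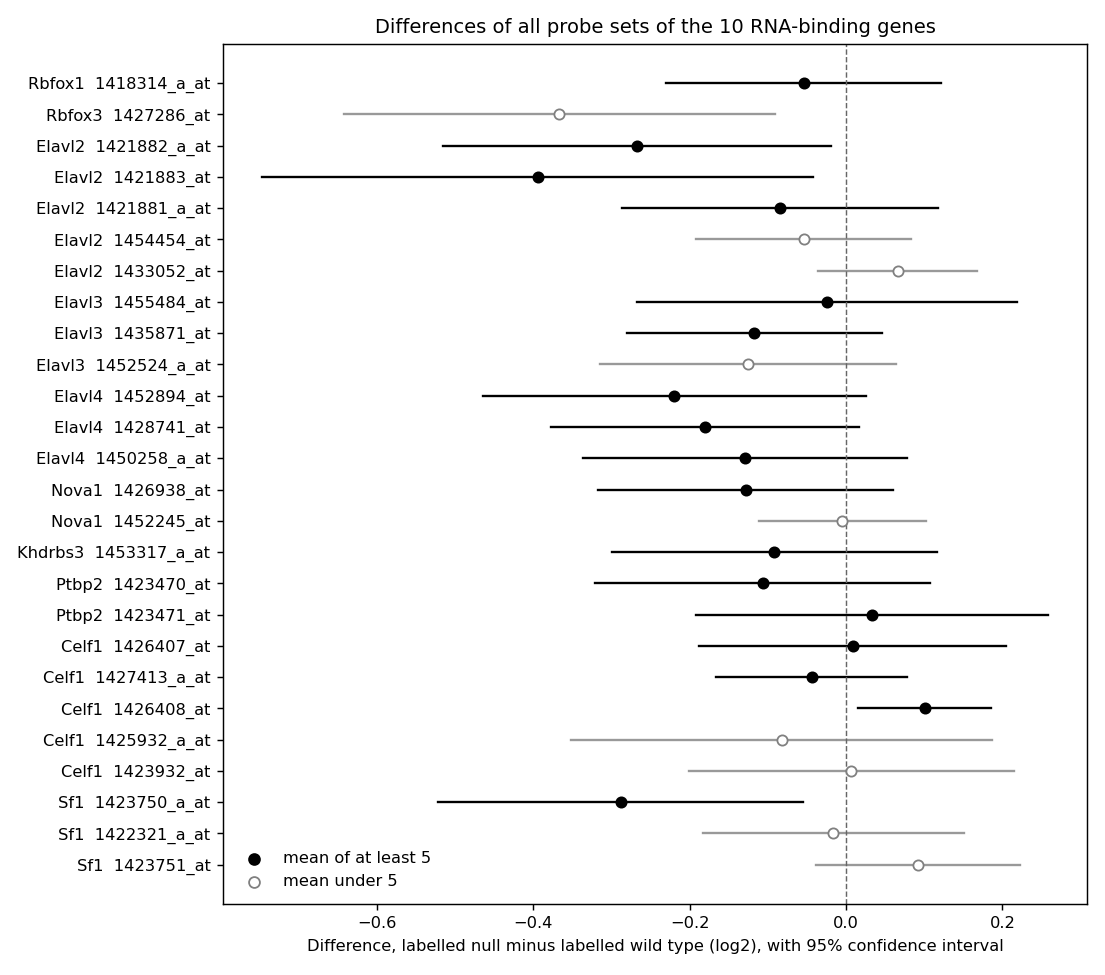
Difference between the labelled groups (horizontal axis, labelled null minus labelled wild type, log2) of all 26 probe sets of the 10 genes (vertical axis), as points with 95% confidence intervals from limma, filled for probe sets with a mean of at least 5 and open for dimmer ones. The intervals of 5 probe sets leave out 0, those of Rbfox3, Sf1 and 2 of Elavl2 below it and that of Celf1 1426408_at above it, and none passed the adjusted threshold.

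Rbfox3 and Rbfox1 belong to the same family and are both abundant in mature neurons. The single Rbfox3 probe set, 1427286_at, was at 4.21, 4.39, 4.38, 4.49 and 4.24 in replicates 1 to 5 labelled wild type, and at 4.10, 3.80, 3.57, 4.15 and 4.26 in replicates 1 to 5 labelled null. The wild type arrays lay together, the null arrays spread more widely, and the groups overlapped through null replicate 5 alone. The means were 4.34 ± 0.12 (SD, n = 5, log2) and 3.98 ± 0.29 (SD, n = 5), a difference of -0.37 (SE 0.12, 95% confidence interval from -0.64 to -0.09), or 22.4% less signal in the arrays labelled null. The exact permutation test (two-sided) gave p = 0.0238, and the adjusted limma p was 0.999. Rbfox3 was the largest of the differences among the brightest probe sets of the 10 genes, and its unadjusted limma p was under 0.05 in all 17 alternatives that held it, with differences from -0.44 to -0.26 when single arrays were left out. The probe set was dim, with a mean of 4.16. With values under 4 raised to 4 its difference was -0.24, and it fell out when probe sets with a mean under 5 were removed. In whole cortex, fewer neurons and less Rbfox3 RNA per neuron cannot be told apart.

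Rbfox1 probe set 1418314_a_at was bright and nearly level. It was at 11.68, 11.71, 12.07, 11.68 and 11.83 in replicates 1 to 5 labelled wild type, and at 11.63, 11.74, 11.78, 11.69 and 11.87 in replicates 1 to 5 labelled null. The groups overlapped over nearly their whole range, with wild type replicate 3 the highest array. The difference was -0.05 (SE 0.08, 95% confidence interval from -0.23 to 0.12), with p = 0.595 by the exact permutation test (two-sided), and it was 0.01 without wild type replicate 3. Whether Rbfox3 and Rbfox1 differed unequally between the groups was not tested.

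**Figure D2:**
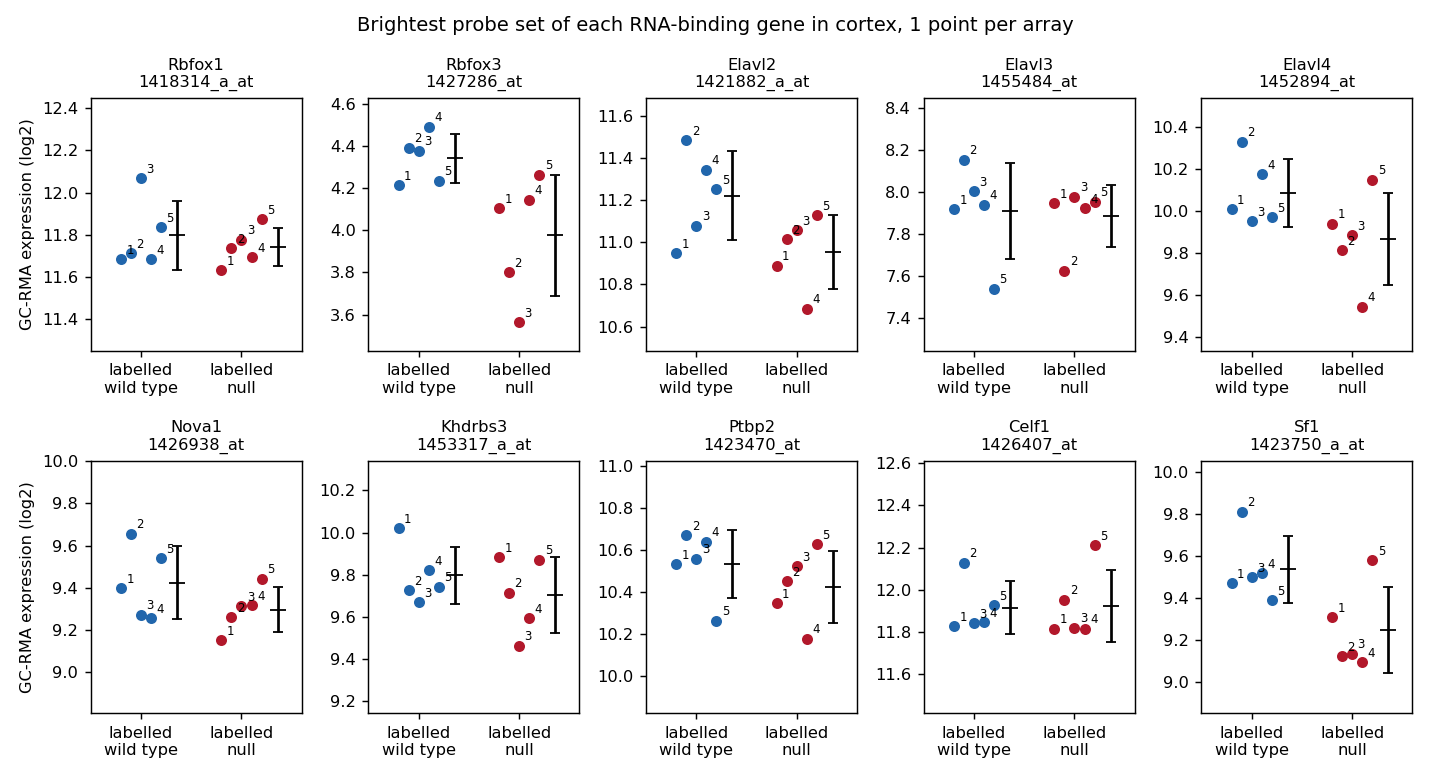
GC-RMA expression (log2, vertical axis, each panel spanning the same range) of the brightest probe set of each of the 10 genes, with 1 numbered point per array. Blue points are labelled wild type (n = 5) and red points labelled null (n = 5), and black bars give mean and SD. The groups overlap in all 10 panels, and null replicate 5 is the highest null array in 8 of them.

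The neuronal Hu genes were read by 11 probe sets, 5 for Elavl2 and 3 each for Elavl3 and Elavl4. Elavl2, expressed in neurons from early differentiation onward, showed the largest differences among them. Its brightest probe set, 1421882_a_at, was at 10.95, 11.49, 11.08, 11.34 and 11.25 in replicates 1 to 5 labelled wild type, and at 10.89, 11.01, 11.06, 10.69 and 11.13 in replicates 1 to 5 labelled null. The lowest arrays were null replicate 4 and null replicate 1, with wild type replicate 1 between them and the remaining null arrays, and the highest was wild type replicate 2. The difference was -0.27 (SE 0.11, 95% confidence interval from -0.51 to -0.02), with p = 0.0635 by the exact permutation test (two-sided). Probe set 1421883_at was at 9.66, 10.08, 9.62, 9.67 and 10.25 in replicates 1 to 5 labelled wild type, and at 9.29, 9.74, 9.61, 9.07 and 9.60 in replicates 1 to 5 labelled null. Here wild type replicates 2 and 5 lay above all other arrays and null replicates 1 and 4 below them. The difference was -0.39 (SE 0.16, 95% confidence interval from -0.75 to -0.04), with p = 0.0794 by the exact permutation test (two-sided). The third bright Elavl2 probe set, 1421881_a_at, showed a smaller difference of -0.08 (SE 0.09, 95% confidence interval from -0.29 to 0.12), and its groups overlapped. The other Elavl2 probe sets, 1454454_at and 1433052_at, were dim, at -0.05 and 0.07. After quantile normalization the unadjusted p of Elavl2 was under 0.05 at neither 1421882_a_at nor 1421883_at, with differences of -0.22 and -0.34. Neither had such a p with the methods' t-test or without null replicate 1, null replicate 4, wild type replicate 2 or wild type replicate 5.

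Elavl4, which stabilises mRNAs of growing axons such as Gap43, was below 0 at each of its probe sets. The brightest, 1452894_at, was at 10.01, 10.33, 9.95, 10.17 and 9.97 in replicates 1 to 5 labelled wild type, and at 9.94, 9.81, 9.89, 9.54 and 10.15 in replicates 1 to 5 labelled null. Apart from null replicate 5, every null array lay below every wild type array. With all arrays the difference was -0.22 (SE 0.11, 95% confidence interval from -0.46 to 0.03), and it was -0.29 without null replicate 5 and -0.14 without null replicate 4. Probe set 1428741_at was at 9.22, 9.40, 9.19, 9.36 and 9.11 in replicates 1 to 5 labelled wild type, and at 9.04, 9.01, 8.93, 9.01 and 9.38 in replicates 1 to 5 labelled null, so again null replicate 5 alone stood among the wild type arrays. Its difference was -0.18 (SE 0.09, 95% confidence interval from -0.38 to 0.02), and it was -0.26 without null replicate 5 and -0.11 after quantile normalization. The third, 1450258_a_at, differed by -0.13 (SE 0.09, 95% confidence interval from -0.34 to 0.08), by -0.20 without null replicate 5, by -0.06 without null replicate 4 and by -0.05 after quantile normalization. Each of the 3 had an unadjusted limma p under 0.05 without null replicate 5, against 0 of 3 in the reported fit. The lowest adjusted p of any member without null replicate 5 was 0.661. With null replicate 5 kept, 1428741_at had such an unadjusted p after median centring, with array weights and without wild type replicate 5. Probe set 1452894_at had one with array weights. Without null replicate 5, 5.64% of all probe sets and 13.6% of the bright ones were lower at that p.

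Elavl3, a marker of neurons that have left the cell cycle, differed little between the groups. Its brightest probe set, 1455484_at, was at 7.92, 8.15, 8.00, 7.94 and 7.54 in replicates 1 to 5 labelled wild type, and at 7.95, 7.63, 7.98, 7.92 and 7.95 in replicates 1 to 5 labelled null. In each group 1 array lay far below the rest, wild type replicate 5 and null replicate 2. The difference was -0.02 (SE 0.11, 95% confidence interval from -0.27 to 0.22), and it came to 0.04 in each of 3 other settings, which left out null replicate 2, left out wild type replicate 2 or used quantile normalization. Probe set 1435871_at differed by -0.12 (SE 0.07, 95% confidence interval from -0.28 to 0.05), and the dim 1452524_a_at by -0.13 (SE 0.09).

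Sf1 encodes the protein that binds the branch point before the U2 particle does. Its one bright probe set, 1423750_a_at, was at 9.47, 9.81, 9.50, 9.52 and 9.39 in replicates 1 to 5 labelled wild type, and at 9.31, 9.12, 9.14, 9.10 and 9.58 in replicates 1 to 5 labelled null. Null replicates 1 to 4 lay below every wild type array, while null replicate 5 lay above all but wild type replicate 2. The means were 9.54 ± 0.16 (SD, n = 5, log2) and 9.25 ± 0.20 (SD, n = 5). The difference was -0.29 (SE 0.11, 95% confidence interval from -0.52 to -0.05), or 18.1% less signal in the arrays labelled null, with p = 0.0556 by the exact permutation test (two-sided). Without null replicate 5 it was -0.37, after quantile normalization -0.23, and without null replicate 4, where its unadjusted limma p was no longer under 0.05, -0.25. The dim Sf1 probe sets 1422321_a_at and 1423751_at were at -0.02 and 0.09, both with intervals that span 0.

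Celf1, which acts on splicing in the nucleus and on mRNA decay in the cytoplasm, was the one gene with a probe set higher in the arrays labelled null at an unadjusted p under 0.05. Probe set 1426408_at was at 7.89, 7.86, 7.86, 7.85 and 7.80 in replicates 1 to 5 labelled wild type, and at 7.95, 8.02, 7.92, 7.90 and 7.98 in replicates 1 to 5 labelled null. Every null array lay above every wild type array. Of all probe sets, 0.292% showed such a separation upward. The difference was 0.10 (SE 0.04, 95% confidence interval from 0.02 to 0.19), or 7.21% more signal, with p = 0.00794 by the exact permutation test (two-sided), the smallest that 5 arrays against 5 allow, and an adjusted limma p of 0.999. The unadjusted limma p was 0.05 or more in 6 of 18 alternatives, at 0.172 with an intensity trend and robust prior, 0.131 without dim probe sets, 0.0594 under the replicate block, 0.052 with values floored at 4, 0.0632 without null replicate 2 and 0.0614 without wild type replicate 5. After quantile normalization the difference was 0.17. The brighter Celf1 probe sets did not show such a separation. The brightest, 1426407_at, was at 11.83, 12.13, 11.84, 11.85 and 11.93 in replicates 1 to 5 labelled wild type, and at 11.81, 11.95, 11.82, 11.81 and 12.21 in replicates 1 to 5 labelled null, with null replicate 5 and wild type replicate 2 above the rest in their groups. Its difference was 0.01 (SE 0.09, 95% confidence interval from -0.19 to 0.21), and that of 1427413_a_at was -0.04 (SE 0.06, 95% confidence interval from -0.17 to 0.08). The dim 1425932_a_at and 1423932_at were at -0.08 and 0.01. Whether the Celf1 probe sets differed from each other in their difference was not tested.

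Nova1, Khdrbs3 and Ptbp2 showed differences within the spread between arrays. Nova1, which binds YCAY clusters and is the target of antibodies in a paraneoplastic movement disorder, was at 9.40, 9.66, 9.27, 9.25 and 9.54 in replicates 1 to 5 labelled wild type, and at 9.15, 9.26, 9.31, 9.32 and 9.44 in replicates 1 to 5 labelled null (1426938_at). The groups overlapped, and the difference was -0.13 (SE 0.09, 95% confidence interval from -0.32 to 0.06). The other Nova1 probe set, 1452245_at, was dim and at -0.0050. Khdrbs3, known for regulating alternative exons of neurexins, was at 10.02, 9.73, 9.67, 9.82 and 9.74 in replicates 1 to 5 labelled wild type, and at 9.88, 9.71, 9.46, 9.59 and 9.87 in replicates 1 to 5 labelled null (1453317_a_at). Arrays of both groups were intermixed, and the difference was -0.09 (SE 0.09, 95% confidence interval from -0.30 to 0.12). Ptbp2 was at 10.53, 10.67, 10.56, 10.64 and 10.26 in replicates 1 to 5 labelled wild type, and at 10.35, 10.45, 10.52, 10.18 and 10.63 in replicates 1 to 5 labelled null at its brighter probe set, 1423470_at. Null replicate 4 was the lowest array and wild type replicate 2 the highest, and the difference was -0.11 (SE 0.10, 95% confidence interval from -0.32 to 0.11). The dimmer Ptbp2 probe set, 1423471_at, was at 0.03 (SE 0.10). For these genes the intervals still hold differences down to -0.32 on the log2 scale.

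The deviation of the 10 genes was followed array by array. With each gene given by its brightest probe set, their mean deviation from the 10-array mean was 0.02, 0.23, 0.05, 0.09 and -0.01 in wild type replicates 1 to 5, and -0.08, -0.13, -0.13, -0.18 and 0.13 in null replicates 1 to 5. Wild type replicate 2 and null replicate 5 were thus highest, and null replicate 4 lowest. In null replicate 5, 0 of the 10 genes were below their own mean, against 8, 9, 7 and 9 of 10 in null replicates 1 to 4 and between 2 and 5 of 10 in the wild type arrays. Null replicate 5 was the highest null array for 8 of the 10 genes, and wild type replicate 2 the highest wild type array for 7 of the 10. All bright probe sets on average moved the same way in null replicate 5, by a mean of 0.12, and less so in wild type replicate 2, by 0.06. After quantile normalization the 10 genes were at 0.01 in null replicate 5 and still at 0.19 in wild type replicate 2. Members of 1 array share its RNA and its normalization, so they are not replicates of a condition.

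**Figure D3:**
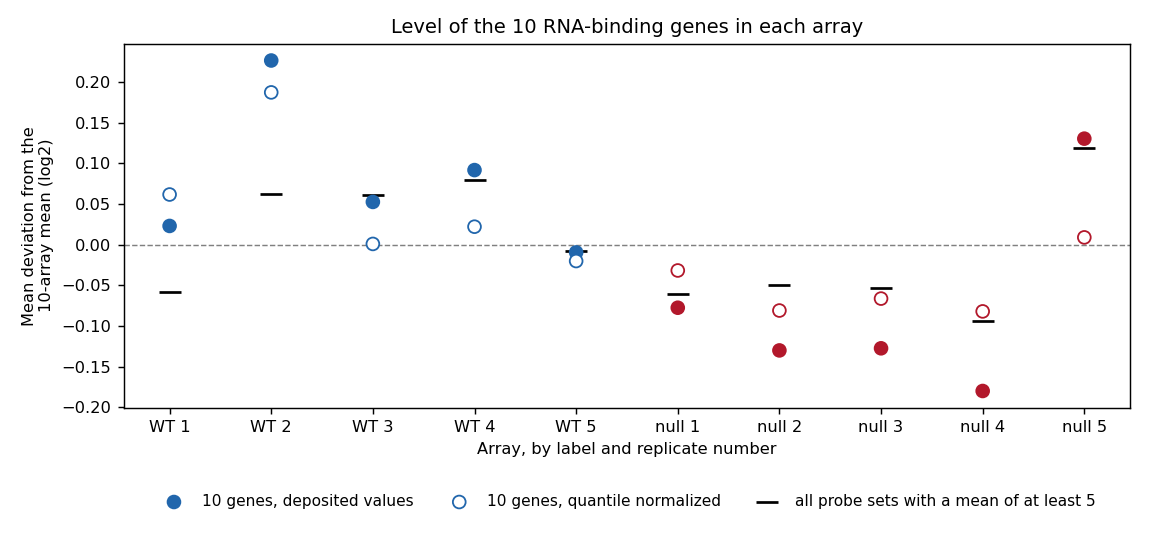
Mean deviation of the 10 genes (brightest probe sets) from their 10-array means (vertical axis, log2) in each array (horizontal axis, blue for labelled wild type, red for labelled null), as deposited (filled circles) and after quantile normalization (open circles), with the mean deviation of all probe sets with a mean of at least 5 as black dashes. Null replicate 5 stands at 0.13 as deposited and at 0.01 after quantile normalization, and wild type replicate 2 at 0.23 and 0.19.

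The differences by gene were also set side by side after quantile normalization and without each of the highest arrays. The median over the 10 brightest probe sets was -0.12 as deposited, -0.05 after quantile normalization, -0.16 without null replicate 5 and -0.09 without wild type replicate 2. Rbfox3, Elavl2, Elavl4 and Sf1 were the 4 lowest genes in each of these 4 settings. Elavl3 was above 0 after quantile normalization and without wild type replicate 2, and Celf1 was below 0 without null replicate 5.

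**Figure D4:**
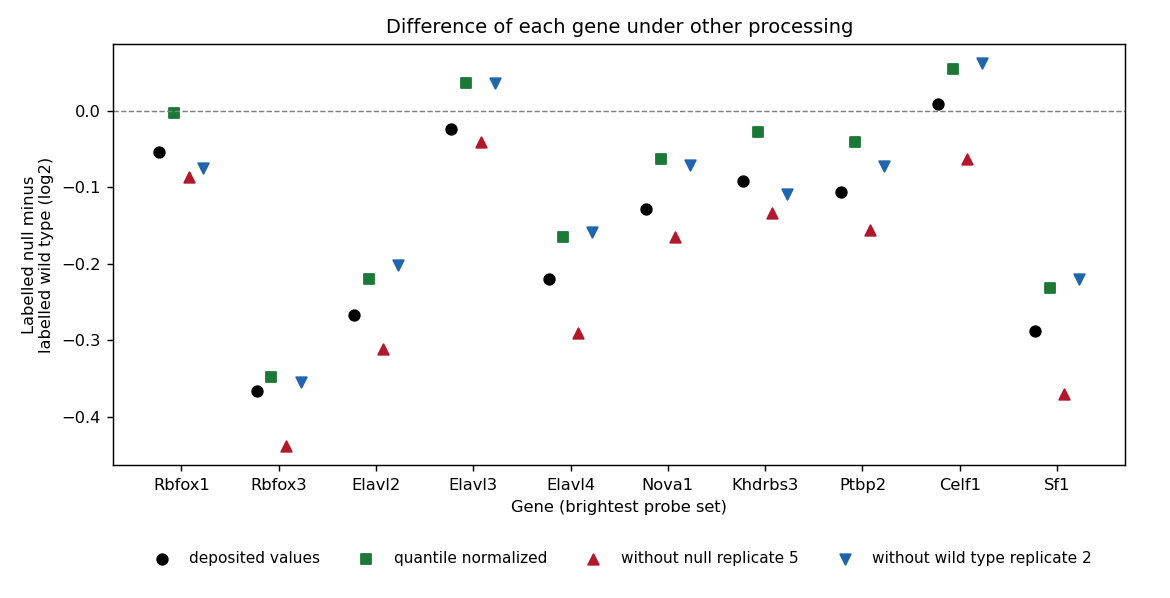
Difference between the labelled groups (vertical axis, labelled null minus labelled wild type, log2) of the brightest probe set of each of the 10 genes (horizontal axis), as deposited (black circles), after quantile normalization (green squares), without null replicate 5 (red triangles pointing up) and without wild type replicate 2 (blue triangles pointing down). Rbfox3, Elavl2, Elavl4 and Sf1 lie lowest in all 4 settings, and Elavl3 and Celf1 change sign.

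Other genes of the same pathway were described by their brightest probe set, against 12393 genes of which 51.2% were below 0, 2.61% lower and 1.33% higher at an unadjusted limma p under 0.05. Of 12 close relatives of the members, 8 were measured, 4 below 0 and 4 above, with a median of -0.01, and 0 had an unadjusted p under 0.05. Among them Celf2, a brain CELF protein, was at -0.24 (SE 0.12), Celf4 at -0.10 (SE 0.07), Rbfox2, the widely expressed Rbfox gene, at 0.20 (SE 0.23), and Elavl1, the Hu protein of all cells, at 0.08 (SE 0.08). The difference between the members and these relatives was not tested. Of 17 partners at the branch point and 3′ splice site, 16 were measured, 10 below 0, with a median of -0.04. Puf60, which binds the polypyrimidine tract with U2af, was lower at an unadjusted p of 0.0116 (-0.21, SE 0.07) and Phf5a, a subunit of the Sf3b complex, higher (0.15, SE 0.05). The Phf5a probe set was dim, with a mean of 3.84. Of 16 other splicing regulators of brain, 13 were measured and 12 were below 0, with a median of -0.05. Of the 13, 9 had a mean of at least 5, and among all 4921 genes that bright 3205 were below 0. The one with an unadjusted p under 0.05 was Tia1, a U-rich RNA-binding protein (-0.32, SE 0.12), and Qk, the Quaking protein abundant in glia, was at -0.32 (SE 0.16). No gene of these lists passed the adjusted threshold of limma, a count of 0. After quantile normalization the medians were 0.02 for the relatives, 0.03 for the partners and -0.03 for the other regulators.

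Transcripts known as targets of these proteins were measured at the level of the gene, which does not show their exons. Of 14, 7 had a probe set of their own, 5 below 0, with a median of -0.01, or of 0.05 after quantile normalization. Gphn, which encodes the inhibitory synapse scaffold gephyrin, was lower at an unadjusted p under 0.05 (-0.20, SE 0.09), while Gap43, the growth cone protein, was at 0.26 (SE 0.13) and Snap25, of the synaptic release machinery, at -0.09 (SE 0.08).

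Markers of cell types were read in the same way. Of the 4921 genes whose brightest probe set had a mean of at least 5, 3205 were below 0, with a median of -0.04. Of these 4921, 256 were lower at an unadjusted limma p under 0.05. All 10 pan-neuronal genes were bright in this sense. Of 10 pan-neuronal genes, 5 were lower at an unadjusted limma p under 0.05, with a median of -0.12, among them Thy1 (-0.24, SE 0.07), Eno2 (-0.29, SE 0.09), Nefl (-0.20, SE 0.07) and Nefm (-0.28, SE 0.10). The other direction held 4 of the 10, with Map2 at 0.25, Syt1 at 0.07, Stmn2 at 0.00776 and Uchl1 at 0.00163, none with such a p; these 4 were named after their values were seen. Averaged over the list, the level per array spanned 11.39 to 11.62 under the wild type label and 11.26 to 11.56 under the null label. After quantile normalization the median of the pan-neuronal genes was -0.07, and that of the 4921 genes was 0.01. Of 9 oligodendrocyte genes measured, all were below 0 and 3 were lower at that p, with a median of -0.17, list averages of 8.10 to 8.66 per wild type array and of 7.94 to 8.27 per null array. Mbp, the myelin basic protein, was at -0.23 (SE 0.07) as deposited and at -0.11 after quantile normalization. Excitatory neuron genes (0 of 5 at that p, median -0.15) and inhibitory neuron genes (0 of 7, median -0.11) had medians below 0. Astrocyte genes (1 of 8, S100b, median -0.01) split into 4 below 0 and 4 above, microglial genes (0 of 9, median 0.03) into 3 and 6, and endothelial genes (0 of 7, median -0.03) into 4 and 3. Striatal genes (0 of 5, median -0.07), choroid plexus genes (0 of 4, median 0.02) and blood genes (0 of 3, median -0.0013) had no member at that p, and all 3 blood genes were dim. A mean of at least 5 was reached by 3 of 5 excitatory, 7 of 7 inhibitory, 7 of 8 astrocyte and 4 of 9 microglial genes. It was reached by 1 of 7 endothelial, 3 of 5 striatal and 1 of 4 choroid plexus genes. The medians of the excitatory, microglial and endothelial genes were values of dim probe sets, with means of 4.13, 3.57 and 4.70. After quantile normalization the medians were -0.11 for oligodendrocyte, -0.13 for excitatory and -0.07 for inhibitory neuron genes. They were then 0.02 for astrocyte, 0.04 for microglial and -0.01 for endothelial genes, and -0.02, 0.01 and -0.02 for striatal, choroid plexus and blood genes. As a sign of RNA quality, the 3′ minus the 5′ control probe set of Gapdh spanned -0.04 to 0.27 in wild type arrays and -0.07 to 0.12 in null arrays, and that of Actb -0.03 to 0.35 and -0.03 to 0.37. The part of these markers in the members' differences was not tested.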

How the data were processed

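RNA from the cerebral cortex of 10 mice was hybridised by the authors to Affymetrix mouse arrays, 1 per mouse. The deposited values are log2 expression per probe set, computed by the authors with GC-RMA. It corrects each probe for background using its GC content, equalises the arrays and combines the probes of a set. The software version was not given in the sources used here. Samples were grouped by their titles. The labels do not say which arrays are littermates, so the fit has no pairing.

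Of all probe sets, 64 controls were removed and 22626 tested. The platform annotation gave 1 gene for 20380, several for 691 and none for 1555, and 20351 were matched by gene ID to GRCm38.p6 for current symbols. Each probe set was tested for a group difference in R 4.3.3 by lmFit and eBayes of limma 3.58.1, with Benjamini-Hochberg adjustment over all 22626, a threshold of 0.05 and no filter. The code was checked on simulated data. For single probe sets, the difference of the group means was also tested with exact permutation tests (two-sided). Dim means a mean under 5. The number of arrays limits the precision.

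Members, lists and tests were chosen with earlier results of these data known. All probe sets of members are named, up to 4 genes of each other list with the smallest p, and the 3 genes most like Rbfox3, Elavl2 and Sf1 in pattern. Alternatives were a replicate block, median centring, quantile normalization, leaving out dim probe sets, raising values under 4 to 4, eBayes with trend and robust set, weighting of arrays, the methods' t-test and leaving out each array. Other assays of the study were not analysed here.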

Additional observations from a re-analysis of the deposited data

Results flagged for a closer look

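Of 52 sets of 5 arrays (26 probe sets in each labelled group), 2 held an array that stood apart from the other 4 by Dixon's criterion, and chance flags about 1 in 20 such sets. For Elavl3 probe set 1455484_at, null replicate 2 was at 7.63, with the other null arrays between 7.92 and 7.98. For Elavl4 probe set 1428741_at, null replicate 5 was at 9.38, with the other null arrays between 8.93 and 9.04.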

How the results depend on the processing

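No member probe set had an adjusted p under 0.05 under any of the 18 alternatives, a count of 0 throughout, and the median difference over the member probe sets stayed below 0 in all of them. The number of member probe sets lower at an unadjusted p under 0.05, 4 as reported, was 2 with the methods' t-test and 2 after quantile normalization, and between 1 and 7 when single arrays were left out. The number higher, 1 as reported, was 0 when eBayes used a trend and a robust prior, without dim probe sets, with values floored at 4 and under the replicate block, and between 0 and 1 when single arrays were left out. Of the 453 differences recomputed for single probe sets, 24 changed sign, all for 9 probe sets whose reported differences were at most 0.0824 in size. After quantile normalization Elavl3 1455484_at was at 0.0364 and Celf1 1427413_a_at at 0.0217, and with array weights Celf1 1423932_at was at -0.0292; the cause was not tested. Leaving out single arrays gave ranges from -0.0870 to 0.0133 for Rbfox1 1418314_a_at, from -0.117 to 0.0403 for Elavl3 1455484_at, from -0.0268 to 0.0217 for Nova1 1452245_at, from -0.0162 to 0.109 for Ptbp2 1423471_at, from -0.0634 to 0.0621 for Celf1 1426407_at, from -0.0790 to -0.0176 for Celf1 1427413_a_at, from -0.146 to 0.00838 for Celf1 1425932_a_at, from -0.0555 to 0.0528 for Celf1 1423932_at and from -0.0656 to 0.0269 for Sf1 1422321_a_at.

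The arrays share replicate numbers across the groups, and the study describes littermate pairs, but no label says that a number marks a pair. Deviations from the group means correlated between same-numbered arrays at 0.0474 to 0.457 over all probe sets, with 1 of 5 pairs over 0.1, and 2 of the 10 arrays correlated best with their own number. Fitted with that number as a block, 4 member probe sets were lower at an unadjusted p under 0.05 and 0 higher, and over all probe sets 756 were lower and 322 higher, against 549 and 281 without it. Precision is limited by 5 arrays a group, and for the 9 dim probe sets by low signal.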

Other observations

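Genes whose pattern over the 10 arrays was most like that of Rbfox3, Elavl2 and Sf1 were sought among probe sets with a mean of at least 5 and a gene of their own. They were picked as the highest of all correlations, and arrays share their normalization, so the values describe likeness alone and carry no test. For Rbfox3 they were Srpk2, a kinase of SR splicing proteins (Pearson r = 0.94, Spearman rho = 0.88), Coro1c, an actin-binding coronin (r = 0.93, rho = 0.94), and Lrrc49 (r = 0.90, rho = 0.94). For Elavl2 they were Cox6c, a subunit of cytochrome c oxidase (r = 0.96, rho = 1.00), Tmeff1 (r = 0.95, rho = 0.95) and Dram2 (r = 0.95, rho = 0.92). For Sf1 they were B2m, the light chain of MHC class I (r = 0.95, rho = 0.96), Pygb, the brain glycogen phosphorylase (r = 0.95, rho = 0.92), and Gabpb1, a transcription factor subunit (r = 0.95, rho = 0.93). With each array's deviation taken from its group mean, the r of these 9 genes lay between 0.79 and 0.94. These genes were picked on the same arrays, so this range is no separate evidence.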
